A study of Mus musculus with 6 samples.

Results

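A group of 5 genes of the RNA, ribosome and nuclear machinery of the cell, Alkbh4, Carhsp1, Rps4l, Nup50 and Taf1a, were followed in mouse sperm RNA. They were grouped by function and found by name, through the array probe that carries each gene's RefSeq transcript. They make up 5 of the 45 catalogue genes with 1 symbol, on an array of 60691 probes in all. Each of the 5 has 1 named catalogue probe, printed at 10 spots per array. These are A_51_P209965 for Alkbh4, A_51_P163444 for Carhsp1, A_51_P406105 for Rps4l, A_51_P411297 for Nup50 and A_51_P516057 for Taf1a. Only the 50 catalogue probes were matched to genes, so further probes of these genes were not looked for.

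The samples were sperm of male C57BL/6 mice, 3 control and 3 treated with cadmium (Cd), each labelled a biological replicate and run on its own Agilent array with a red and a green channel. From 5 weeks of age, and for 10 weeks, the control males drank control water and the Cd males drank water with 100 mg/L CdCl2, and sperm were taken at 15 weeks. On each array RNA of the immunoprecipitate (IP) carried the red dye Cy5, and RNA of the matching supernatant carried the green dye Cy3. The sources used here give neither what the IP pulled down nor how many males gave the RNA of each array.

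Since the sources mention no array with the dyes swapped, dye and fraction cannot be told apart in the ratio of the fractions. Control arrays and Cd arrays were read in separate scans, and in each group comparison treatment and scan cannot be told apart. All p-values measure the spread between these arrays only. In the IP channel 28.2% to 44.8% of probes stood well above background on the control arrays, against 43.7% to 49.3% on those of Cd. For the supernatant these shares were 35.1% to 44.0% and 45.6% to 49.8%. Control replicate 1 was the dimmest array in both channels. Of 18 sperm markers listed, 3 had a named probe. Cep41 was well above background in both channels on all 6 arrays, Hyal3 in the IP channel on 6 arrays and in the supernatant on 2, and Spats1 on none. The 1 leukocyte marker of 7 with a named probe, Il2, was well above background on no array. None of the listed epididymal, Sertoli and Leydig or erythrocyte markers had one, so other cells in the sperm were not tested.

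A mature sperm cell has condensed chromatin and is largely silent in transcription and in cytoplasmic translation, and the RNA it carries is mostly left over from earlier stages of sperm formation. The machinery that makes, exports, binds and translates RNA is active in those earlier stages, in spermatogonia, spermatocytes and round spermatids. The 5 genes were grouped with this machinery. Taf1a encodes a subunit of the selectivity factor that brings RNA polymerase I to the ribosomal DNA promoter. Nup50 encodes a nucleoporin of the nuclear basket that takes part in importin-driven transport. Carhsp1 encodes a cold-shock-domain protein that binds RNA. Alkbh4 encodes a dioxygenase of the AlkB family, and its place in this machinery was not tested. Rps4l is a paralogue of the ribosomal protein gene Rps4x and is annotated as a transcribed pseudogene in the RefSeq table used here. Whether its probe also binds Rps4x RNA was not tested.

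No difference between control and Cd sperm passed the test for any of the 5 genes. The readouts were the ratio of IP over supernatant, the level, or dye-corrected signal summed over both fractions, and the signal of each fraction. Alkbh4, Carhsp1 and Nup50 had a ratio well above the median of all probes, detected or not. So had Rps4l, though with spike-in probes as the zero point its control ratio lay below 0. The Cd levels of Alkbh4 and Carhsp1 all lay below the control levels, with means lower by 0.37 and 0.26 on the log2 scale, and these groups overlapped under some other scalings.

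The readings start from processed intensities, which the scanner software had corrected for background and dye. The IP intensity of Alkbh4 was 381, 536 and 538 on control replicates 1 to 3, and 453, 480 and 362 on Cd replicates 1 to 3. Its supernatant intensity was 71.9, 88.7 and 121 in control and 108, 94.3 and 73.7 in Cd. The groups overlapped in both fractions. In the IP channel all 10 Alkbh4 spots stood well above background on every array, but in the supernatant only 3 of 30 control spots and 10 of 30 Cd spots were. On 5 of the 6 arrays, all but Cd replicate 1, fewer than 50% of its supernatant spots were. The scanned supernatant signal of Alkbh4 lay 4.14 to 8.74 units above the local background, beside a pixel SD of that background of 4.24 to 5.18. Its supernatant signal was thus close to background, and Alkbh4 entered neither the ratio test nor the supernatant test.

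For Carhsp1 the IP intensity was 1015, 1578 and 1461 in control and 1422, 1290 and 1187 in Cd. The supernatant intensity was 286, 539 and 451 in control and 520, 526 and 257 in Cd. Its groups overlapped in both fractions, with control replicate 1 the lowest in the IP and Cd replicate 3 the lowest in the supernatant. The Rps4l probe read 25292, 31418 and 39722 in the control IP and 48677, 44837 and 27543 in the Cd IP. Its supernatant read 15789, 18013 and 26397 in control and 25253, 18442 and 17059 in Cd. Cd replicates 1 and 2 lay above all control arrays in the Rps4l IP signal and Cd replicate 3 lay among them. All 10 spots of Carhsp1 and of Rps4l were well above background in both channels on every array.

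Nup50 read 567, 879 and 1313 in the control IP and 930, 1008 and 795 in the Cd IP. In the supernatant it read 175, 323 and 321 in control and 451, 275 and 270 in Cd. Control replicate 1 was the lowest array in both fractions, and the groups overlapped. On that array 8 of 10 Nup50 supernatant spots were well above background, and on the other arrays all 10. Taf1a read 125, 354 and 356 in the control IP and 487, 445 and 141 in the Cd IP. Its supernatant signal was 144, 220 and 253 in control and 239, 251 and 141 in Cd. On control replicate 1 and Cd replicate 3 both Taf1a signals were far lower than on the other arrays. On control replicate 1, 0 of its 10 IP spots and 4 of its 10 supernatant spots were well above background, and its IP signal stood 5.90 units over a background with a pixel SD of 7.73. On Cd replicate 3, 8 IP spots and 9 supernatant spots passed, with an IP signal 9.40 units over background. Faint spots thus gave 2 of the 6 Taf1a readings, 1 in each group.

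**Figure D1:**
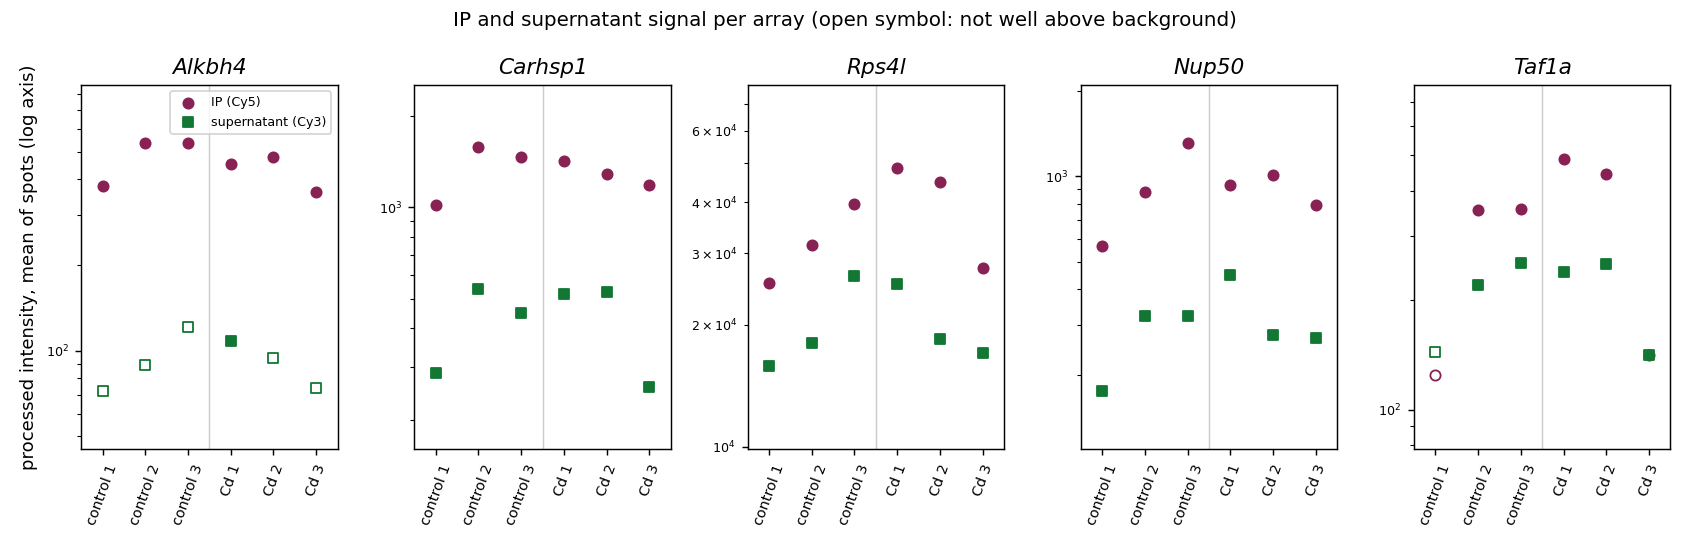
Processed IP intensity (circles) and supernatant intensity (squares) of each gene on the 6 arrays, on a log axis whose range differs between panels; each point is the mean of the spots used and an open symbol means that under 50% of spots were well above background. The supernatant of Alkbh4 is open on 5 of 6 arrays, and both Taf1a signals are low on control replicate 1 and Cd replicate 3.

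The ratio of the fractions was taken as log2 of IP over supernatant. It was centred on the median of all probes of each array, detected or not, so 0 is the median probe. At most 49.3% of probes in the IP and 49.8% in the supernatant were well above background on an array. Probes near background thus weigh on this zero point, and a ratio above 0 need not exceed that of the typical detected probe. Alkbh4 had ratios of 2.51, 2.72 and 2.15 in control and 2.09, 2.41 and 2.30 in Cd. Against an undetected supernatant such a ratio is uncertain. On each control array the IP signal of Alkbh4 was set against the lowest supernatant signal well above background, or its own if higher. With the array median as the zero point, the mean over these arrays was 3.44-fold. This is a rough figure and no strict lower bound. The signal it uses is the lowest over all probes, and an undetected probe can lie above it. The figure is also open to dye bias and does not carry over to the spike-in scale or to another background correction, given below. Carhsp1 gave 1.81, 1.58 and 1.69 in control and 1.46, 1.34 and 2.14 in Cd. Cd replicates 1 and 2 lay below all control arrays and Cd replicate 3 above all of them. The ratio of Nup50 was 1.69, 1.47 and 2.04 in control and 1.05, 1.91 and 1.49 in Cd, again with overlapping groups.

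For Rps4l the ratio was 0.66, 0.83 and 0.58 in control and 0.95, 1.32 and 0.61 in Cd. Cd replicates 1 and 2 exceeded every control array and Cd replicate 3 did not. Taf1a had a ratio of -0.32, 0.71 and 0.47 in control and 1.03, 0.88 and -0.09 in Cd. The negative ratios of Taf1a are those of the faint arrays, control replicate 1 and Cd replicate 3.

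Ordered by the control mean, the ratio of Alkbh4 read 2.46 ± 0.29 (SD, n = 3), over a supernatant that was not well above background, so it is given no rank. Nup50 followed with 1.73 ± 0.28 (SD, n = 3) and 92.5% of the probes tested below it. Carhsp1 had 1.69 ± 0.12 (SD, n = 3) and 92.1%. Nup50 and Carhsp1 differed by less than the spread of their arrays. Rps4l came next with 0.69 ± 0.13 (SD, n = 3) and 73.8% of probes below it, and Taf1a last with 0.28 ± 0.53 (SD, n = 3) and 61.4%. The mean of Rps4l lay within the spread of Taf1a.

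The ratios of Alkbh4, Carhsp1, Rps4l and Nup50 lay above the array median on all 6 arrays, as did those of 30.5% of the 23788 probes tested, while Taf1a did so on 4. The side of 0 depended on the zero point. A new zero point moves all genes of an array alike, so it cannot change the order of the means. With arrays scaled to 14 spike-in probes in place of the median, the control mean of Rps4l was -0.16 and that of Taf1a -0.56, below 0, and the Cd means were 0.30 and -0.05. The control means of Alkbh4, Carhsp1 and Nup50 were 1.61, 0.84 and 0.89 on that scale. The normexp background correction ran on the median signals, with an offset that draws dim ratios toward 0. A loess step then removed the trend of the ratio with intensity on each array. With this setting the control means were 0.48 for Alkbh4, 0.72 for Carhsp1, 0.59 for Nup50, 0.80 for Rps4l and 0.07 for Taf1a. It changed the order, and Rps4l then had the highest of the 5 ratios. Which of its steps did so was not tested. Whether red over green signals of these probes differ for equal RNA was not tested.

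**Figure D2:**
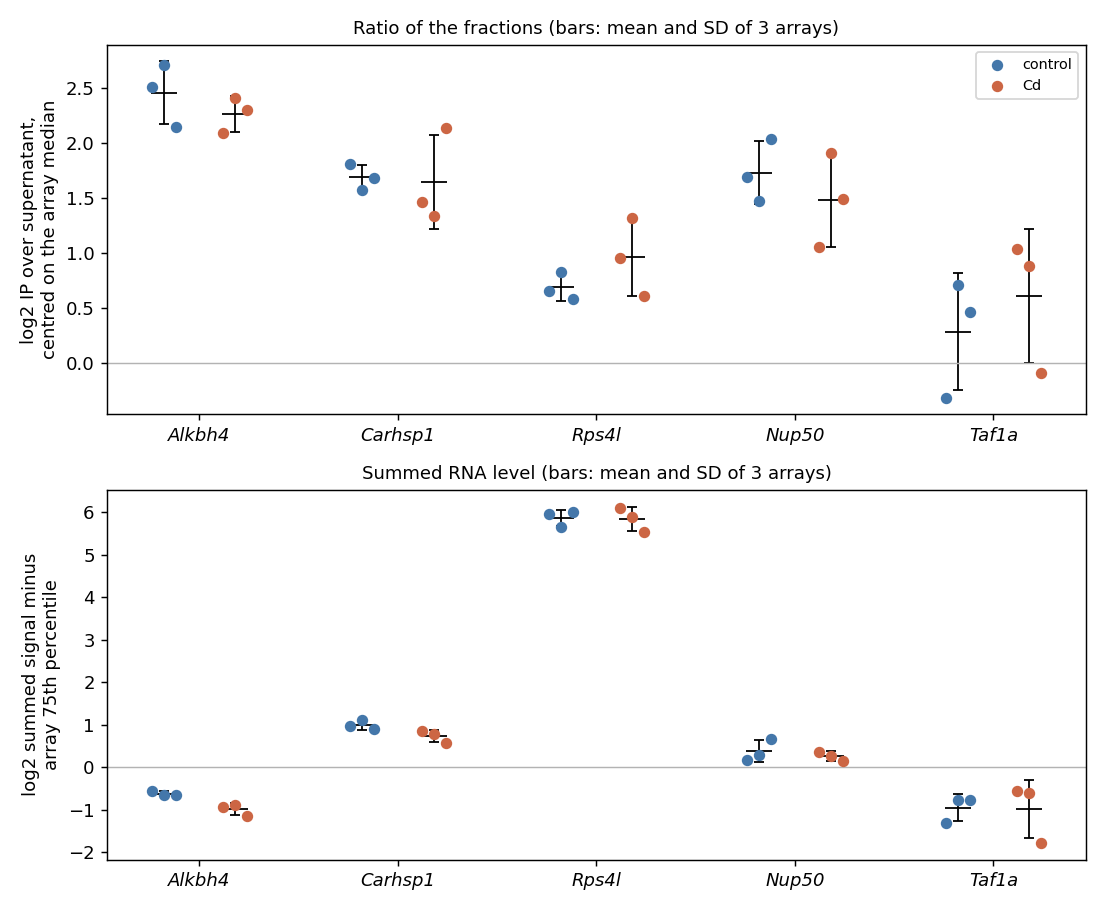
Ratio of IP over supernatant (top, log2, centred on the array median) and summed level (bottom, log2, relative to the 75th percentile of the array) of each gene; points are arrays and bars show the mean and SD of 3 arrays. The groups overlap in the ratio of every gene, and in the level the Cd points of Alkbh4 and Carhsp1 lie below the control points.

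The ratio was then compared between the treatments. Of the 4 genes tested in limma, 0 passed an adjusted p of 0.05 and 0 had an unadjusted p under 0.05. Over all 23788 probes, 0.0042% passed the adjusted threshold and 5.02% the unadjusted one. The groups overlapped in all 4 genes. Over all probes the Cd arrays lay wholly above the control arrays in 4.9% and wholly below in 5.15%. The median difference was 0.12 for the 4 genes, 0.23 for the 27 named catalogue genes tested and 0.04 for all probes.

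Carhsp1 had a control mean of 1.69 ± 0.12 (SD, n = 3) and a Cd mean of 1.65 ± 0.43 (SD, n = 3). Its limma difference was -0.04 (SE 0.29, 95% interval -0.69 to 0.60, adjusted p = 0.995). Its direction turned when 1 array was left out, to 0.02 without control replicate 1, 0.05 without Cd replicate 1 and 0.11 without Cd replicate 2. Leaving out Cd replicate 3, whose supernatant was the dimmest, gave -0.29. The control mean of Nup50 was 1.73 ± 0.28 (SD, n = 3) and its Cd mean 1.48 ± 0.43 (SD, n = 3). This is a limma difference of -0.25 (SE 0.30, 95% interval -0.93 to 0.44, adjusted p = 0.966). It stood at -0.03 without Cd replicate 1, -0.10 without control replicate 3, -0.38 without control replicate 2 and -0.46 without Cd replicate 2. The interval of Nup50 reaches as far as a ratio 0.52 times that of control and one 1.35 times it.

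Rps4l had a control mean of 0.69 ± 0.13 (SD, n = 3) and a Cd mean of 0.96 ± 0.36 (SD, n = 3). By limma the difference was 0.27 (SE 0.27, 95% interval -0.34 to 0.89, adjusted p = 0.964). Without Cd replicate 3 it was 0.45, and without Cd replicate 2 it was 0.09. The 2 Cd arrays that differ most in the Rps4l ratio thus set its size. Taf1a had a control mean of 0.28 ± 0.53 (SD, n = 3) and a Cd mean of 0.61 ± 0.61 (SD, n = 3). Here the limma difference was 0.32 (SE 0.39, 95% interval -0.56 to 1.21, adjusted p = 0.966). Without control replicate 1 this was 0.02, without Cd replicate 3 it was 0.67, and without both 0.37. Leaving out Cd replicate 1 gave 0.11, Cd replicate 2 gave 0.19 and control replicate 2 gave 0.53. For Alkbh4, which was not tested, the control mean was 2.46 ± 0.29 (SD, n = 3) and the Cd mean 2.27 ± 0.16 (SD, n = 3). It was tested under wider filters only, where limma gave a difference of -0.19 with an adjusted p of 0.930 (SE 0.19, no filter) and of 0.978 (SE 0.27, 1 channel well above background).

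The 10 spots of a probe on an array are readings of 1 labelled sample, and their spread can be set beside that of the arrays. The SD of the Rps4l ratio over the spots of an array was 0.040 to 0.17, while its SD was 0.13 over the control arrays and 0.36 over the Cd arrays. Carhsp1 had a spot SD of 0.14 to 0.25, against 0.12 over its control arrays and 0.43 over its Cd arrays. In both genes the SD over the Cd arrays was above that of the spots of any array, and the SD over the control arrays was not. The same held narrowly for Nup50, with a spot SD of 0.11 to 0.40, against 0.28 over its control arrays and 0.43 over its Cd arrays. The spot SD of Taf1a was 0.22 to 0.75, and its SD over the arrays, 0.53 in control and 0.61 in Cd, lay within that range. Alkbh4 had a spot SD of 0.27 to 0.75. For Alkbh4 the SD over the arrays was 0.29 in control, within its spot range, and 0.16 in Cd, below it. Each array value is a mean over spots, and such means vary less than single spots. An SD over arrays within or below the spot range thus does not show that arrays differ only by spot noise. The Nup50 values on Cd replicates 1 and 2 rest on 6 spots each, after spots with outlier flags were removed.

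**Figure D3:**
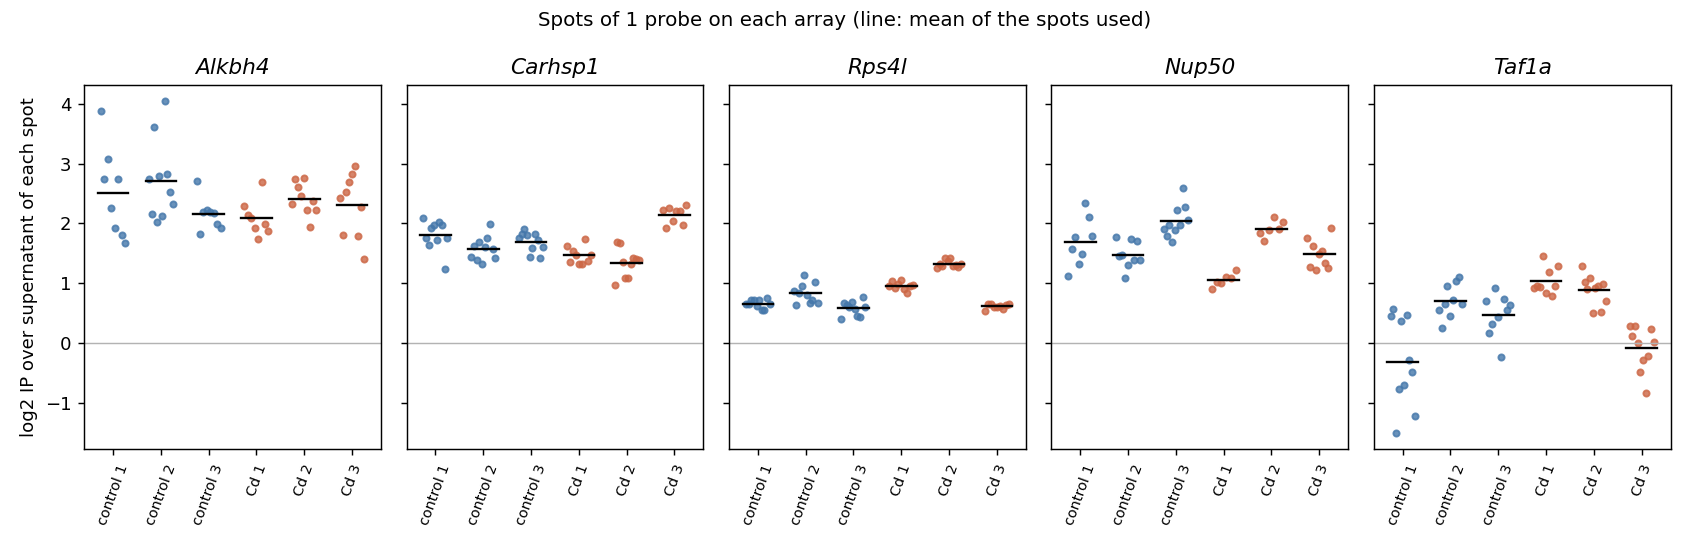
Log2 ratio of IP over supernatant at each spot used, by array, with a line at the mean of the spots. Spots of Rps4l lie close together on each array while its arrays differ, and spots of Alkbh4 and Taf1a on control replicate 1 scatter widely.

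The level was log2 of the IP plus the supernatant signal, relative to the 75th percentile of that sum on the array. After dye correction both channels were on a similar scale. The 75th percentiles of IP and supernatant intensity were 296 and 316 on control replicate 1, and 500 and 500 on Cd replicate 1. Such signals do not tell how much RNA each fraction held. The level is thus a summed signal and cannot be read as the total RNA of a gene. In these bulk samples fewer cells with a transcript and less RNA per cell cannot be told apart. The level of Alkbh4 was -0.55, -0.67 and -0.65 in control and -0.94, -0.89 and -1.15 in Cd. The highest Cd array lay under the lowest control array. The limma difference was -0.37 (SE 0.18, 95% interval -0.78 to 0.04, unadjusted p = 0.0718, adjusted p = 0.506). Carhsp1 had levels of 0.98, 1.101 and 0.89 in control and 0.85, 0.77 and 0.58 in Cd, and here too the Cd arrays were all lower. Its limma difference was -0.26 (SE 0.18, 95% interval -0.68 to 0.17, adjusted p = 0.640).

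This arrangement, without overlap and lower in Cd, held for 2 of the 5 genes and for 8.87% of the 30518 probes tested. Among the 36 named catalogue genes tested, these 5 included, it held for 9. The opposite one held for 0 of the 5 genes, 0 of the 36 and 10.6% of probes. The arrangement lower in Cd depended on the scaling. Quantile normalization kept both genes without overlap, at -0.38 for Alkbh4 and -0.26 for Carhsp1. Under spike-in scaling the groups of both overlapped while the differences, -0.34 and -0.23, were close to those reported. With no scaling between arrays both overlapped too. With normexp, and with the array median in place of the 75th percentile, Carhsp1 overlapped and Alkbh4 did not. With no scaling the difference was -0.13 for Alkbh4 and -0.02 for Carhsp1, where the median difference of all probes was 0.24. With normexp they were -0.15 and -0.03.

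Rps4l had levels of 5.96, 5.65 and 6.00 in control and 6.10, 5.90 and 5.53 in Cd, a limma difference of -0.03 (SE 0.22, 95% interval -0.54 to 0.48, adjusted p = 0.979). For Nup50 they were 0.17, 0.29 and 0.66 in control and 0.36, 0.27 and 0.14 in Cd, a limma difference of -0.11 (SE 0.20, 95% interval -0.58 to 0.36, adjusted p = 0.877). The highest Nup50 level was on control replicate 3, and without that array the difference was 0.03. Taf1a stood at -1.32, -0.78 and -0.77 in control and -0.57, -0.61 and -1.79 in Cd, a limma difference of -0.03 (SE 0.35, 95% interval -0.85 to 0.79, adjusted p = 0.985). Leaving out Cd replicate 3 turned the Taf1a difference to 0.37 and that of Rps4l to 0.13. Cd replicate 3 had the lowest level of all 6 arrays in each of the 5 genes with 75th percentile scaling, while with no scaling control replicate 1 was lowest in all but Alkbh4.

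In the level 0 of the 5 genes passed limma's adjusted threshold and 0 had an unadjusted p under 0.05, where the shares of all probes were 0% and 10.3%. The Cd mean was the lower one in 5 of 5 genes and in 50.1% of probes. Among the 36 named catalogue genes tested it was lower in 28. The median difference was -0.11 over the 5 genes, -0.18 over the 36 and -0.0008 over all probes. The direction in Rps4l, Nup50 and Taf1a turned under other scalings or without single arrays, so the count of 5 rests on differences close to 0.

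**Figure D4:**
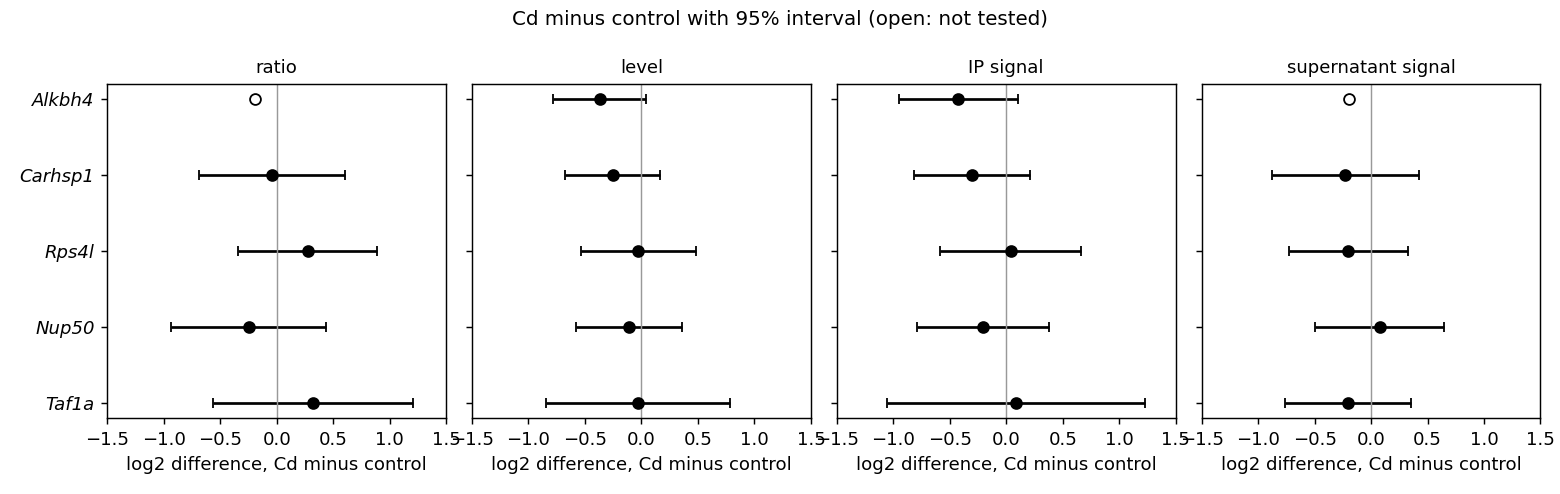
Log2 difference of each gene, Cd minus control, in the ratio, the level and the signal of each fraction, with the 95% interval from limma; open points were not tested. Every interval includes 0, and those of Taf1a in the IP signal, -1.05 to 1.23, span most.

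Taken by fraction, the Cd means of Alkbh4 and Carhsp1 were lower in both, but only in the IP signal without overlap. In the supernatant the difference was -0.20 for Alkbh4, not tested there, and -0.23 for Carhsp1. The IP signal was the larger part of the level in both genes. Relative to the 75th percentile of the IP channel, Alkbh4 stood at 0.34, 0.25 and 0.17 in control and -0.15, -0.04 and -0.32 in Cd, with no overlap. The limma difference was -0.42 (SE 0.23, 95% interval -0.95 to 0.10, adjusted p = 0.650). Carhsp1 had 1.77, 1.81 and 1.62 in control and 1.51, 1.38 and 1.40 in Cd, also without overlap, and a limma difference of -0.30 (SE 0.22, 95% interval -0.82 to 0.21, adjusted p = 0.738). The unscaled IP intensities of both genes overlapped, as given above. The 75th percentile of all IP intensities was itself 296, 449 and 476 in control and 500, 494 and 450 in Cd. The difference with no scaling was -0.15 for Alkbh4 and -0.03 for Carhsp1, with the median difference of all probes at 0.30. Both genes stayed without overlap under quantile normalization, at -0.42 and -0.30, and under spike-in scaling, at -0.55 and -0.43. The last of these settings gave Alkbh4 an unadjusted limma p of 0.043 and an adjusted p of 0.508. Adjusted limma p over the alternatives ran from 0.490 to 0.947 for Alkbh4 and from 0.551 to 0.982 for Carhsp1.

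In the IP signal the Cd arrays lay wholly below control in 2 of 5 genes and in 8.63% of 27413 probes, and wholly above in 0 of 5 genes and 7.65% of probes. Among the 36 named catalogue genes tested they lay wholly below in 8 and wholly above in 2. The Cd mean was lower in 3 of 5 genes and in 47.5% of probes. Nup50 differed by -0.21 (SE 0.25) with an adjusted limma p of 0.852, Rps4l by 0.04 (SE 0.27) and 0.979, and Taf1a by 0.09 (SE 0.49) and 0.974. Without Cd replicate 3 the Taf1a difference was 0.62, and without control replicate 1 it was -0.23. The limma fit called 0 of the 5 genes and 0% of all probes at the adjusted threshold, and 0 of the 5 genes and 8% of probes at an unadjusted p under 0.05.

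In the supernatant signal Carhsp1 differed by -0.23 (SE 0.29, limma adjusted p = 0.790), with Cd replicate 3 at -0.82 and the other arrays between -0.16 and 0.25. Without Cd replicate 3 the difference was 0.07. Rps4l differed by -0.20 (SE 0.23, limma adjusted p = 0.767) and Taf1a by -0.20 (SE 0.25, limma adjusted p = 0.779), which turned to 0.02 without Cd replicate 3. Nup50 was the gene with a higher Cd mean, at 0.08 (SE 0.25, limma adjusted p = 0.922), and without Cd replicate 1 its difference was -0.13. The groups overlapped in all 4 genes tested, while 11.5% of 26878 probes lay wholly higher and 6.65% wholly lower in Cd. Limma called 0 of the 4 and 0% of probes at the adjusted threshold, and 0 of the 4 and 9.56% of probes at an unadjusted p under 0.05.

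The precision of 3 arrays against 3 sets what these comparisons can show. For the median probe the 95% interval reached 0.69 to each side of the estimate in the ratio and 0.55 in the level. The Alkbh4 interval in the level runs from 0.58 times to 1.03 times the control level, that of Carhsp1 from 0.63 to 1.12 times and that of Taf1a from 0.56 to 1.73 times. A missed threshold therefore does not show that these transcripts were alike in both groups.

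**Figure D5:**
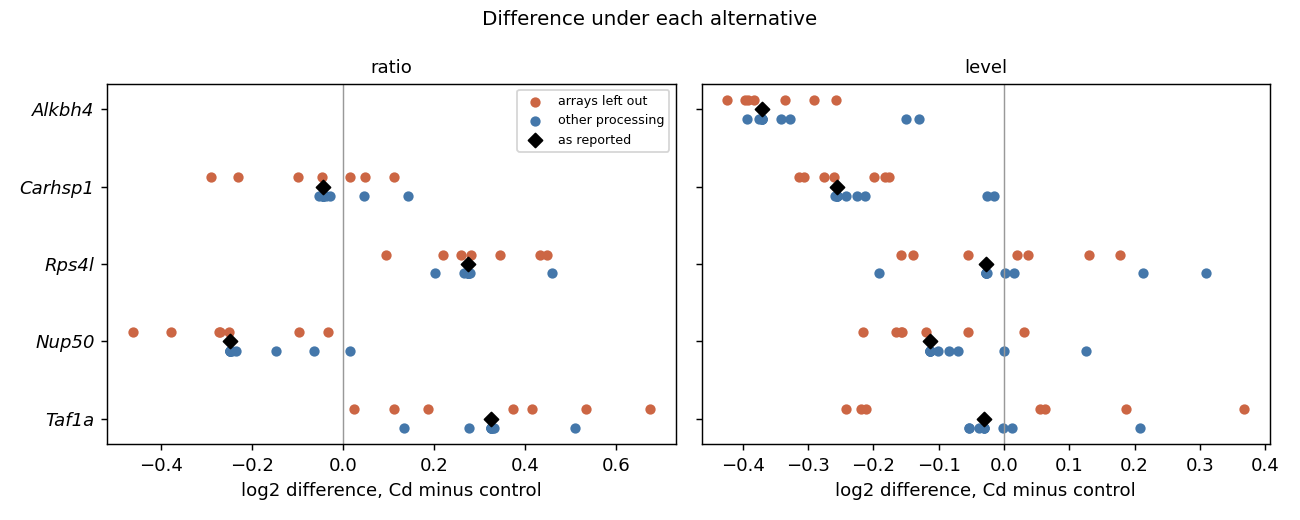
Log2 difference, Cd minus control, of each gene in the ratio (left) and level (right) as reported (diamond), with arrays left out (upper points) and under other processing (lower points); the Alkbh4 ratio is absent because it did not pass the filter of the reported test. Points of Alkbh4 and Carhsp1 in the level stay below 0, from -0.42 to -0.13 and from -0.31 to -0.02, while those of Rps4l, Nup50 and Taf1a fall on both sides.

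Around these genes the named catalogue probes cover few others of the same machinery, and the other probes of the array were not matched to genes. Of 18 ribosomal genes listed 1 had a named probe, Rps4l itself. The list of 18 dioxygenase and RNA methylation genes had 1, Alkbh4. The 8 cold-shock and RNA-binding genes and the 15 nuclear pore and transport genes likewise had 1 each, Carhsp1 and Nup50. Of 16 genes of RNA polymerase I and basal transcription, Taf1a and E2f1 had one. E2f1, a transcription factor of the cell cycle, was well above background in neither channel on any array. The other genes of these pathways were not analysed here.

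Among the named catalogue genes tested, those with the most similar profile over the 6 arrays were found from values centred on each gene's own mean. The likeness is the root mean square (RMS) of the log2 differences, smaller meaning more alike. In the level Alkbh4 was nearest to Gamt, the guanidinoacetate methyltransferase of creatine synthesis (RMS 0.067), and to H2-Q7, a major histocompatibility class I gene (RMS 0.099). The same pair stood nearest to Carhsp1, at 0.081 and 0.098. Rps4l was nearest to Acaa2, a mitochondrial thiolase (0.11), and Pex11a, a peroxisome gene (0.13), and Nup50 to Acaa2 (0.11) and Rps4l (0.19). The level of Nup50 itself spread over the arrays by an RMS of 0.17, so Rps4l was no nearer to it than a flat profile. Taf1a was nearest to Uhrf1bp1l (0.14) and Anxa8 (0.20), in a level whose own RMS spread over the arrays was 0.44.

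In the ratio the nearest profiles were less close. Carhsp1 was nearest to Olfr166 (RMS 0.19) and Cpt1a (0.21), Rps4l to Uhrf1bp1l (0.18) and Bambi (0.18), Nup50 to H2-Q7 (0.22) and Cep41 (0.23), and Taf1a to Gsta4 (0.26) and Rab5a (0.27). These rankings run over 35 other genes in the level and 26 in the ratio, measured on the same 6 arrays, and describe those arrays only.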

How the data were processed

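Per the file headers, the authors deposited the intensity of each spot, background-subtracted and dye-normalized with Agilent Feature Extraction 11.0.1.1. The log10 ratios that the authors deposited were compared with these signals. The largest difference over the spots was 0.0932 in log10, and no limit was set for it. A series table of log2 IP values, also deposited by the authors, was compared with the arrays; it held none of the 5 probes in the form used here. Genes were named by transcript accession through the RefSeq table of GRCm38.p6, which gave 45 of 50 catalogue probes 1 symbol; the headers name another build, so no coordinates are printed.

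Spots with an outlier flag were removed and the others averaged per probe. A probe was well above background on an array where at least 50% of its spots were. Probes entered a fit when this held on at least 3 of 6 arrays, in both channels for the ratio, in 1 for the level and in its own channel for a fraction. Scaling used the array median (ratio) or 75th percentile. Groups were compared over all probes with limma 3.58.1 (lmFit, eBayes) in R 4.3.3, 2-sided, with Benjamini-Hochberg adjustment at 0.05. A run on simulated data required only that planted differences came back on average, and set no limit on missed or false calls. Alternatives covered background correction, filter, scaling, spot summary, variance model, replicate block and each array left out. The text names the 5 genes, the list genes with a probe, and for each gene the 2 nearest profiles. The genes and lists were chosen with earlier results of these data known. Plots came from matplotlib 3.10.9 (Python 3.11.15). The number of arrays limits the precision.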

Additional observations from a re-analysis of the deposited data

How the results depend on the processing

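Over 18 tested pairs of gene and readout, 302 alternative fits gave 0 calls, 259 in the same direction as reported and 43 in the opposite one. Fits that changed only the filter, the variance model or the replicate block repeat a gene's difference, so their direction could not turn. Their direction was kept by 6 pairs in every alternative run, namely the ratio of Rps4l (0.09 to 0.46) and Taf1a (0.02 to 0.67), the level of Alkbh4 (-0.42 to -0.13) and Carhsp1 (-0.31 to -0.02), and the IP signal of Alkbh4 (-0.55 to -0.15) and Carhsp1 (-0.43 to -0.009). Alkbh4 reached its smallest p in the IP signal with spike-in scaling, an unadjusted limma p of 0.043 and an adjusted p of 0.508.

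Some values turned, none past the threshold. The normexp setting used the median signals, an offset of 50 and loess. With it the ratio was 0.046 for Carhsp1 and 0.015 for Nup50, and the level 0.31 for Rps4l and 0.00082 for Nup50. The IP signal of Nup50 was then 0.0093 and the supernatant of Rps4l 0.19. With spike-in scaling the ratio of Carhsp1 was 0.14, the level of Rps4l 0.0022, and the IP signal of Rps4l -0.087 and of Taf1a -0.038. Quantile normalization gave -0.18 for the IP signal of Rps4l. The array median gave levels of 0.015 for Rps4l and 0.012 for Taf1a, and the median over all spots -0.023 for the supernatant of Nup50. With no scaling the level differed by 0.21 for Rps4l, 0.13 for Nup50 and 0.21 for Taf1a, the IP signal of Nup50 by 0.065, and the supernatant by 0.0054 for Carhsp1, 0.031 for Rps4l and 0.030 for Taf1a. That setting moved the median difference of all probes by 0.24 in the level, 0.27 in the IP and 0.23 in the supernatant, and spike-in scaling moved it by 0.18 in the ratio and -0.13 in the IP. Without control replicate 1 and Cd replicate 3 together the level was 0.18 for Rps4l and 0.19 for Taf1a. This joint setting and the unscaled one were chosen after seeing the data. Beyond the shifts of scale, the cause was not tested.

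With 1 array left out at a time the ratio of Carhsp1 ran from -0.29 to 0.11. The level ran from -0.16 to 0.13 for Rps4l, -0.22 to 0.031 for Nup50 and -0.24 to 0.37 for Taf1a. The IP signal ran from -0.089 to 0.25 for Rps4l and -0.23 to 0.62 for Taf1a. The supernatant ran from -0.39 to 0.070 for Carhsp1, -0.33 to 0.017 for Taf1a and -0.13 to 0.21 for Nup50. These fits kept the probe filter of all 6 arrays.

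The number of genes with all Cd levels below control, 2 as reported, was 1 with normexp and with the array median, and 0 with spike-in scaling and with no scaling. In the IP signal, against 2, it was 1 with normexp, 0 with no scaling and, with Nup50 added, 3 without Cd replicate 2.

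The labels name no pairing by replicate number. With group means removed, same-numbered arrays correlated at -0.07, -0.05 and -0.12 in the ratio and at -0.41, 0.43 and 0.004 in the level. In the IP the correlations were -0.26, 0.41 and -0.12, and in the supernatant -0.39, 0.13 and 0.11. These values do not settle whether the arrays were paired. With the number as a replicate block 0 genes were called in each readout. The scan could not be fitted as a block, since each scan held 1 group, and the deposited series table was not run because it held none of the 5 probes in the form used here. Signal near background limits Alkbh4 in the supernatant and Taf1a on 2 arrays.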
